A study of Mus musculus with 54 samples.

Results

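Centrins are small calcium-binding proteins of the centriole, and the mouse carries 4 genes for them, Cetn1, Cetn2, Cetn3 and Cetn4. All 4 were looked up by symbol in the gene count tables of mouse germ cells, where they are 4 of 23309 gene symbols, and each was present in the whole testis table and in the table of round spermatids and spermatocytes. The family was picked with a result in view, since Cetn4 had stood out for its low counts in round spermatids without BORIS. For that reason every value that rests on those libraries is a description for Cetn4, with no test, and centrins called in those comparisons are counted over the other 3 genes. The WT round spermatid libraries were the other side of that choice. Tests of Cetn4 that use them without those of BORIS KO were kept and counted. They are not independent of the choice, which favoured a high WT level. The study crossed a heterozygous deletion of Ctcf, the gene of the chromatin insulator protein CTCF, with a homozygous deletion of Boris (listed as Ctcfl), its testis-restricted paralog. Mice on a C57BL/6 background were compared at 3 months of age. CTCF HET mice lacked 1 copy of Ctcf and kept Boris (Ctcf+/-Boris+/+), BORIS KO mice lacked Boris alone (Ctcf+/+Boris-/-), the compound mutant CM, which some labels call DKO, carried both deletions (Ctcf+/-Boris-/-), and WT mice carried neither. No Cre or transgene is named for either allele. RNA was sequenced from germ cell preparations of whole testis, each pooled from 4 mice, and from sorted round spermatids and spermatocytes, in 35 libraries with 3 per genotype and preparation, except 2 for WT spermatocytes.

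Centrins were first found in the contractile fibres of algal flagella and are now known mostly as proteins of the lumen and distal end of centrioles. Cetn2 and Cetn3 are used in most dividing and ciliated cells: Cetn2 also joins the XPC complex of nucleotide excision repair and a nuclear mRNA export complex, and Cetn3 belongs to the group closest to yeast Cdc31, which duplicates the spindle pole body. Cetn1 is a retroposed autosomal copy of the X-linked Cetn2 and is used in male germ cells and in photoreceptors, and Cetn4 was described in ciliated cells such as those of brain, kidney and lung. In the testis the centrioles of the round spermatid build the sperm tail, so centrioles, a flagellum and the coupling of head to tail are all being made in the cells measured here. Cetn1 lies on chromosome 18 from 9615522 to 9619476 of the mm9 build, on the minus strand, with exons in 2 blocks.

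Depth was 10437683 to 42055813 counts a library for whole testis. It was higher for sorted cells, at 47740650 to 98545423 counts for round spermatids, and 53337530 to 88946702 counts for spermatocytes. Values are given as depth-scaled counts (CPM), scaled between libraries by the TMM method within each table, and as CPM per kilobase of merged exon length (RPKM) where genes are compared with each other. Ctcf itself lay at 24 to 27.4 CPM in CM whole testis against 39.9 to 47 CPM in WT, but at 39.5 to 172 CPM in the round spermatid libraries labelled CM against 29.4 to 48.7 CPM in WT (log2 fold change 1.29 ± 0.54 SE, edgeR adjusted p = 0.23), the 172 CPM being replicate 1. In spermatocytes labelled CM it lay at 33 to 85.9 CPM against 33.3 to 35.2 CPM. Ctcf was thus not lower in the sorted libraries labelled CM. In CTCF HET it lay at 21.6 to 33.4 CPM in round spermatids (-0.44 ± 0.22, edgeR adjusted p = 0.16), and at 32.3 to 52.4 CPM in spermatocytes (0.34 ± 0.22, edgeR adjusted p = 0.37), so it was not lower than WT in the latter either. All sorted libraries are called by their label throughout. Ctcfl lay at 1.97 to 2.39 CPM in BORIS KO round spermatids against 2.84 to 5.12 CPM in WT, where whole-gene counts do not separate the deleted part. The 10 markers of round spermatids (the acrosomal, transition protein and protamine genes among them) summed to 1398 to 1557 CPM in WT round spermatids and to 42 to 42.5 CPM in WT spermatocytes. The 9 spermatocyte markers, mostly of the synaptonemal complex and meiotic recombination, summed to 3106 to 3566 CPM in WT round spermatids, 935 to 1017 CPM in BORIS KO round spermatids, 5822 to 6874 CPM in WT spermatocytes and 4114 to 4174 CPM in BORIS KO spermatocytes. The part that these differences in cell content play in the results below was not tested, and in bulk RNA fewer cells of a type and less RNA per cell cannot be told apart.

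On the mm9 build Cetn2 occupies 70158871 to 70163750 of the X chromosome (minus strand), Cetn3 lies on chromosome 13 from 81922291 to 81936142 (plus strand), and Cetn4 on chromosome 3 from 37206671 to 37211630 (minus strand). Merged exons span 1247 bases for Cetn1, 1646 for Cetn2, 999 for Cetn3 and 4036 for Cetn4. Their GC content is 45.5% for Cetn1, 45.1% for Cetn2 and 44.6% for Cetn4, but 34.7% for Cetn3, which matters below because fold changes ran with GC content in several comparisons. Transcripts of different centrins shared 0 stretches of 50 or of 75 bases, so that reads of those lengths tell the genes apart. The starts of Cetn2 and of Cetn4 face a neighbour on the opposite strand: Nsdhl, which encodes a sterol dehydrogenase, starts 146 bases from Cetn2, and Bbs12, a gene of the chaperonin complex that assembles the BBSome, overlaps the start of Cetn4 by 155 bases. Fgf2, for a fibroblast growth factor, starts beside Bbs12 and overlaps Cetn4 by 190 bases. The use of strand in the counting is not given in the sources used here, so counts from the shared bases cannot be told apart. The promoters of Cetn2, Cetn3 and Cetn4 are shown, from 250 bases before to 50 bases after the annotated start. Pol2 and H3K4me3 peaks cover these starts and also that of Cetn1, whose window was left out, so nothing is said of its motifs. Capitals mark the CCAAT box, a proximal promoter element (CCAAT on either strand, found in 38.2% of all promoter windows of this size):
Cetn2 promoter (chrX:70163701-70164000, minus strand): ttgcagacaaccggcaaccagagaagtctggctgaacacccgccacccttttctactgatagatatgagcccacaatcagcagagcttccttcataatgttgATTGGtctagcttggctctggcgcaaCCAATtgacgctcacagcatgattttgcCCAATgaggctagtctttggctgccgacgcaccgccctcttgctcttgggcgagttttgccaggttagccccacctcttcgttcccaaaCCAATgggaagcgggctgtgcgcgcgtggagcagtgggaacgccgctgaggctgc
Cetn3 promoter (chr13:81922041-81922340, plus strand): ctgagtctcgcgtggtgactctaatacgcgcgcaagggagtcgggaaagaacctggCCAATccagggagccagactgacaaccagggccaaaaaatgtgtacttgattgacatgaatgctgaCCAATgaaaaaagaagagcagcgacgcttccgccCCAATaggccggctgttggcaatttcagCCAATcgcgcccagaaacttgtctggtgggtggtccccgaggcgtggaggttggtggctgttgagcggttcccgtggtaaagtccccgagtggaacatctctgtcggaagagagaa
Cetn4 promoter (chr3:37211581-37211880, minus strand): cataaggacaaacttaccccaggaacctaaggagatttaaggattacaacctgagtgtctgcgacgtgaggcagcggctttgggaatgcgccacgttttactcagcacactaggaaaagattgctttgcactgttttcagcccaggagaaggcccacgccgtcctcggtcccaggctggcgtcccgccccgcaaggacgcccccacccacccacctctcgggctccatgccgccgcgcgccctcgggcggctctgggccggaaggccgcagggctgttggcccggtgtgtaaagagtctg

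The Cetn2 window holds 4 CCAAT boxes and the Cetn3 window 4, while these letters are not in the Cetn4 window, whose GC content is 62%. The cyclic AMP response element of postmeiotic promoters (TGACGTCA, in 2.39% of promoter windows) and the X-box of ciliary genes bound by RFX factors (1.34%, both strands) were found in none of the 3 windows. The core of the CTCF motif (12 letters with 5 of them free, either strand, in 9.81%) was found at bases 164 to 175 of the Cetn3 window and 142 to 153 of the Cetn4 window, counted from the 5′ end.

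In WT round spermatids, per kilobase of exon, Cetn4 stood highest at 791 ± 82.6 RPKM (SD, n = 3), followed by Cetn3 at 586 ± 27.2 RPKM and Cetn1 at 559.7 ± 53 RPKM, whose libraries overlapped. Cetn2 was far lower, at 9.94 ± 0.745 RPKM. By this measure Cetn4 was the gene of rank 48, Cetn3 of rank 78, Cetn1 of rank 85 and Cetn2 of rank 4158 among 21897 genes with an exon length. In WT spermatocytes the order was another: Cetn1 led at 788 ± 40.2 RPKM (n = 2), Cetn3 reached 469 ± 50.9 RPKM and Cetn4 406 ± 75.4 RPKM with overlapping libraries, and Cetn2 was at 0.132 ± 0.0277 RPKM. In WT whole testis Cetn1 stood at 419 ± 36.1 RPKM (n = 3), Cetn3 at 60.6 ± 7.87 RPKM, Cetn4 at 31.5 ± 2.77 RPKM and Cetn2 at 3.18 ± 0.512 RPKM, and the libraries of these 4 genes did not overlap. These orders rest on the merged exon lengths, the longest being that of Cetn4. By mean CPM, Cetn4 led in WT spermatocytes too (1638 CPM against 983 CPM for Cetn1). In WT whole testis it lay above Cetn3 (127 CPM against 60.6 CPM). The whole testis libraries were made from RNA depleted of ribosomal RNA on another sequencer than the poly(A) libraries of sorted cells, and the tables were scaled separately, so levels are not tested between them.

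**Figure D1:**
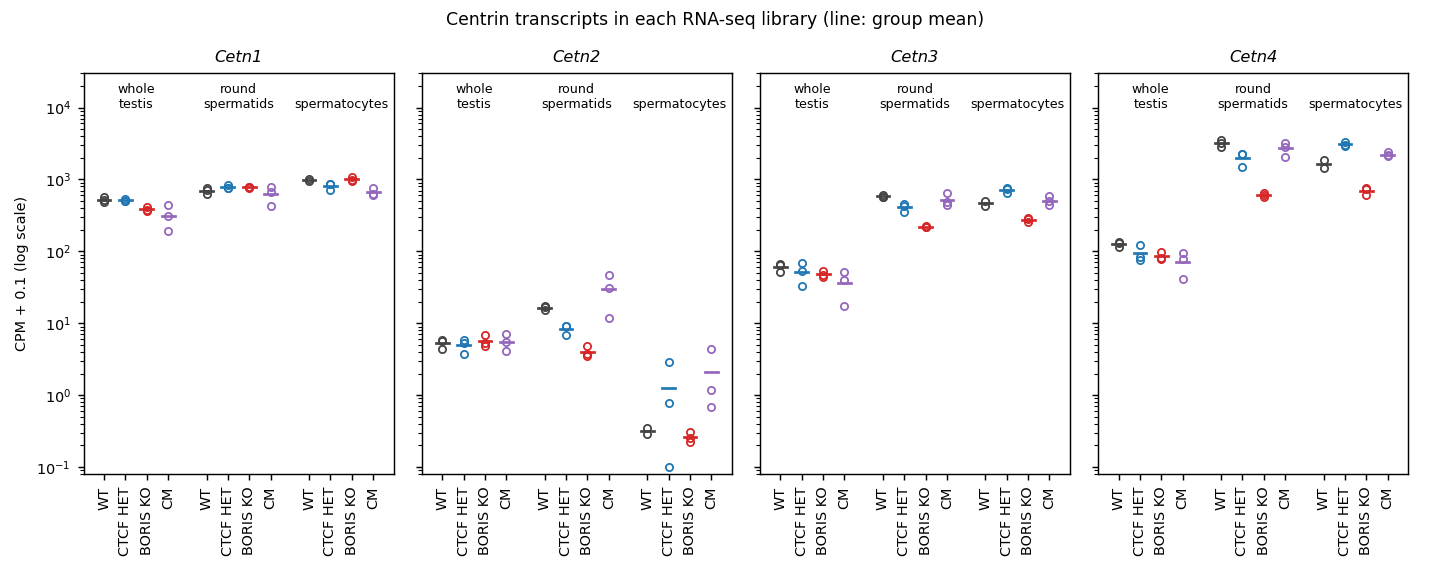
CPM plus 0.1 on a log axis for each centrin in each of the 35 libraries, grouped by preparation and genotype; circles are libraries and lines group means. Cetn4 is at 566 to 658 CPM in BORIS KO round spermatids against 2833 to 3492 CPM in WT, Cetn1 lies between 426 and 1082 CPM in every sorted library, and Cetn2 lies under 5 CPM in every spermatocyte library.

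Between spermatocytes and round spermatids of WT all 4 centrins were called, as were 70.0% of the 16052 genes tested. Cetn3 changed direction under 1 alternative, given below. Cetn2 was at 15, 16.8 and 17.3 CPM in round spermatids against 0.25 and 0.185 CPM in spermatocytes, where it had 19 and 14 counts. It rose by 6.25 ± 0.24 on the log2 scale (edgeR adjusted p = 5.8e-07), and this held without any library and under every alternative. The X chromosome is silenced in pachytene spermatocytes, and the part of this in the rise of Cetn2 was not tested. Cetn2 moved with its chromosome: the median log2 fold change was 5.44 over 566 X-linked genes, 93.1% of which rose, and -0.089 over 14805 genes on other chromosomes. Nsdhl, which shares the divergent start with Cetn2, rose by 5.99 ± 0.45 (edgeR adjusted p = 1.8e-05). The autosomal copy went the other way: Cetn1 fell by 0.47 ± 0.1 on the log2 scale, from 947 and 1018 CPM in spermatocytes to 628, 707 and 759 CPM in round spermatids (edgeR adjusted p = 0.0043). Cetn4 rose by 0.99 ± 0.15 (edgeR adjusted p = 0.00065), from 1423 and 1853 CPM to 2833, 3251 and 3492 CPM. The choice of Cetn4 favoured a high level in WT round spermatids, so this test is not independent of it. Cetn3, at 432 and 504 CPM in spermatocytes and 569, 571 and 617 CPM in round spermatids, rose by 0.35 ± 0.1 (edgeR adjusted p = 0.017). The Cetn3 call was lost without round spermatid replicate 3 or spermatocyte replicate 2 of WT and with the replicate block (adjusted p = 0.11), and with each library's trend of counts on GC content removed by an offset its log2 fold change was -0.73 (adjusted p = 0.011).

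In round spermatids of BORIS KO mice, Cetn2 and Cetn3 fell and Cetn1 did not pass the test, so that 2 of 3 centrins tested were lower, in a comparison in which 55.8% of 15513 genes were called and 29.0% were called lower. Cetn4, the gene of the choice, lay at 566, 601 and 658 CPM in BORIS KO against 2833, 3251 and 3492 CPM in WT. Its libraries did not overlap and its log2 fold change of -2.36 ± 0.098 was lower than that of all but 0.83% of genes tested. Both are features that its choice by this fall favoured. Cetn2 lay at 3.39, 3.62 and 4.75 CPM against 15, 16.8 and 17.3 CPM, with no overlap. Its log2 fold change was -2.03 ± 0.16 (edgeR adjusted p = 1.8e-05), a 4.08-fold fall that held without each library in turn, while in a fit of all sorted groups together the adjusted p was 0.077. Among 564 X-linked genes the median log2 fold change was -0.58, against 0.030 for genes on other chromosomes, and 247 of the X-linked genes were called lower. Cetn3 lay at 216, 216 and 227 CPM against 569, 571 and 617 CPM, again without overlap, for a log2 fold change of -1.38 ± 0.077 (edgeR adjusted p = 4.1e-06). Cetn1 was at 764, 779 and 789 CPM against 628, 707 and 759 CPM, and its log2 fold change of 0.19 ± 0.087 did not pass (edgeR adjusted p = 0.084), although every BORIS KO library lay above every WT one.

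Fold changes in this comparison ran with GC content, which bears on the centrins unequally. Over 787 tested genes with exons under 40% GC the median log2 fold change was -1.07, and over 3035 genes of 43% to 47% GC it was -0.46. The 42 genes with 34% to 36% GC had a median of -1.45, with a 10th to 90th percentile of -2.45 to -0.27, and Cetn3 at -1.38 lay among them. With the GC offset Cetn3 was at 0.075 ± 0.10 (edgeR adjusted p = 0.61), so its call rests on the scale on which genes of unequal GC content are compared. Cetn2 stayed lower with the offset, at -1.52 ± 0.14 (edgeR adjusted p = 5.1e-05), Cetn1 became higher, at 0.65 ± 0.1 (edgeR adjusted p = 0.0009), and Cetn4 stood at -1.80 ± 0.079. The 1533 genes of 44% to 46% GC, the range of Cetn4, had a 10th percentile of -1.32 without the offset. Cetn4 was chosen for a low value in this comparison, so its place below that percentile is no test. Cetn2, in the same GC range and at -2.03 without the offset, lay below that percentile too. With the offset 37.4% of all genes were called. Whether the trend arose in the cells or in the libraries was not tested.

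**Figure D2:**
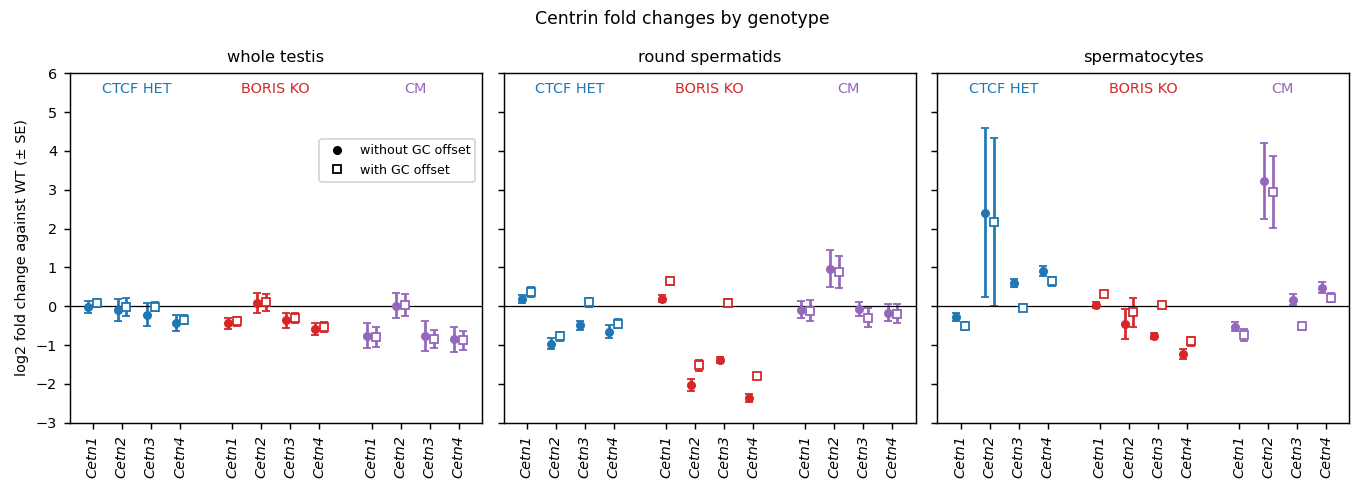
Log2 fold change (± SE) of each centrin for CTCF HET, BORIS KO and CM against WT in the 3 preparations, without (circles) and with (squares) the GC offset, which in whole testis goes with the replicate block. In BORIS KO round spermatids Cetn3 moves from -1.38 to 0.075 with the offset while Cetn2 and Cetn4 stay under -1.5.

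**Figure D3:**
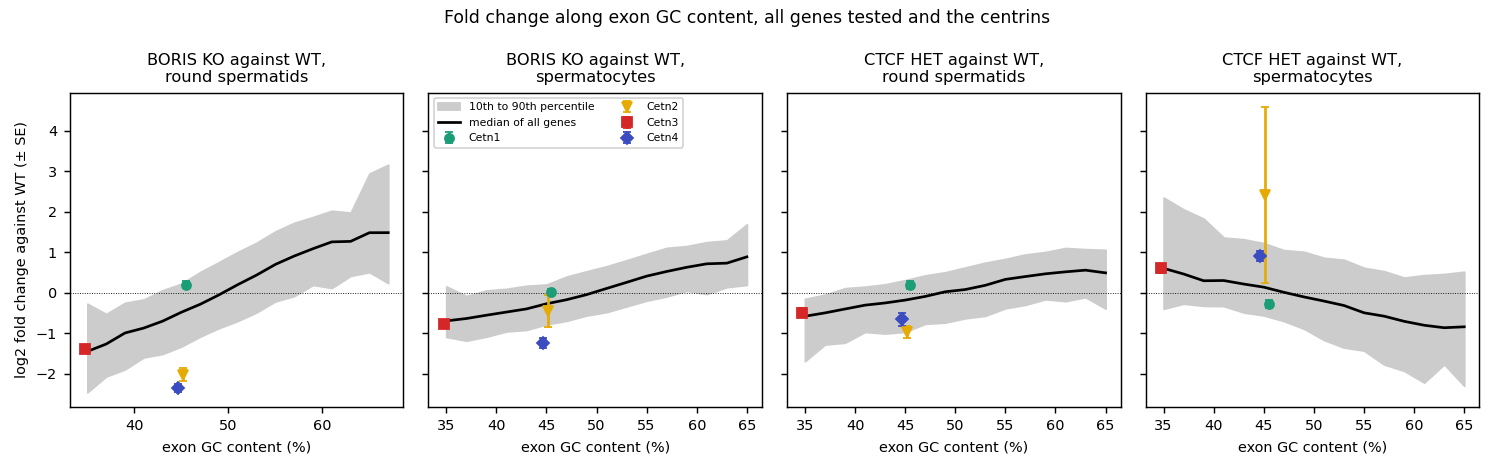
Log2 fold change against WT (± SE for centrins) by exon GC content in percent; the line is the median and the grey band the 10th to 90th percentile of all genes tested in bins of 2% GC. Cetn3, at 34.7% GC, follows the line in all 4 comparisons. Cetn4 lies below the band in BORIS KO round spermatids, where it was chosen for its fall, and in BORIS KO spermatocytes. Cetn2 lies below the band in BORIS KO round spermatids too.

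Spermatocytes of BORIS KO mice, measured in other libraries than those by which Cetn4 was chosen, also held less Cetn4. The animals behind the sorted libraries are not given in the sources used here, so both cell types may come from the same mice. It lay at 605, 734 and 754 CPM against 1423 and 1853 CPM in WT, with no overlap, for a log2 fold change of -1.24 ± 0.13 (edgeR adjusted p = 8.8e-05), a 2.36-fold fall. The call held without each library in turn and under every alternative, the GC offset included (-0.91 ± 0.11, edgeR adjusted p = 0.00052). In this comparison 2 of the 4 centrins were called, both lower, where 57.2% of 14338 genes were called and 28.1% were called lower. The other was Cetn3, at 252, 283 and 289 CPM against 432 and 504 CPM, with a log2 fold change of -0.78 ± 0.080 (edgeR adjusted p = 1e-05). For Cetn3 the GC offset again took the difference away, to 0.021 ± 0.054 (edgeR adjusted p = 0.78), and 38 genes of 34% to 36% GC had a median of -0.69. Cetn1 did not pass, at 941, 988 and 1082 CPM against 947 and 1018 CPM (log2 fold change 0.024 ± 0.073, edgeR adjusted p = 0.8), but passed with the offset at 0.30 ± 0.072 (edgeR adjusted p = 0.0076). Cetn2 had 9 to 14 counts in BORIS KO and 14 to 19 in WT, and at that depth a log2 fold change of -0.46 ± 0.4 could not be told from 0 (edgeR adjusted p = 0.35). With the offset 42.0% of all genes were called here.

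The response to the loss of BORIS was compared between the 2 cell types in 1 fit, in which 13.4% of 16519 genes were called. Of the 3 centrins tested, 2 differed. For Cetn2 the log2 fold change was more negative in round spermatids by 1.64 ± 0.36 (difference -1.64, edgeR adjusted p = 0.014), though the call was lost without WT replicate 2 or BORIS KO replicate 3 of spermatocytes, where counts were few. For Cetn3 the difference was -0.68 ± 0.12 (edgeR adjusted p = 0.0058), lost without WT spermatocyte replicate 2 (adjusted p = 0.21), and 0.062 with the GC offset. In the fit of all sorted groups neither gene was called. For Cetn1 it was 0.099 ± 0.11 (edgeR adjusted p = 0.61). The difference for Cetn4, which has no test here, was -1.19 ± 0.18.

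In CTCF HET round spermatids 3 of the 4 centrins were called, all lower, where 22.3% of 15238 genes were called and 12.8% were called lower. Cetn2 lay at 6.81, 9.01 and 9.09 CPM in CTCF HET against 15 to 17.3 CPM in WT, a log2 fold change of -0.96 ± 0.15 (edgeR adjusted p = 0.0051) that held without each library and with the GC offset. Cetn4 lay at 1479, 2261 and 2276 CPM against 2833 to 3492 CPM (log2 fold change -0.66 ± 0.17, edgeR adjusted p = 0.026; with the offset -0.45, adjusted p = 0.024). The WT libraries here were also used in choosing Cetn4, so its test is not independent of the choice. Cetn3 lay at 357, 421 and 461 CPM against 569 to 617 CPM (-0.49 ± 0.11, edgeR adjusted p = 0.02) and at 0.096 with the offset (adjusted p = 0.59). The calls of Cetn3 and Cetn4 were lost without WT replicate 2, WT replicate 3 or CTCF HET replicate 1, with adjusted p up to 0.091 for Cetn3 and 0.11 for Cetn4, and the fit of all sorted groups called none of the 3. Cetn1 did not pass, at 752, 769 and 843 CPM (0.19 ± 0.11, edgeR adjusted p = 0.22). With the GC offset 21.9% of all genes were called. Spermatocyte markers summed to 1669 to 2589 CPM in these CTCF HET libraries against 3106 to 3566 CPM in WT, and replicate 2, the lowest in those markers, was also the lowest in Cetn2, Cetn3 and Cetn4. Round spermatid markers summed to 986 to 1044.5 CPM in CTCF HET against 1398 to 1557 CPM in WT. The part of these markers in the centrin values was not tested.

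In CTCF HET spermatocytes 2 of the 4 centrins were called, both higher, where 15.5% of 13648 genes were called and 6.77% were called higher. Cetn4 lay at 2878, 2978 and 3347 CPM against 1423 and 1853 CPM in WT, with no overlap (log2 fold change 0.91 ± 0.13, edgeR adjusted p = 0.0079; with the GC offset 0.64, adjusted p = 0.024). Without CTCF HET replicate 2 its adjusted p was 0.057. Cetn3 lay at 639.9, 731 and 760.3 CPM against 432 and 504 CPM (0.61 ± 0.11, edgeR adjusted p = 0.013), a call lost without WT replicate 2, CTCF HET replicate 1 or CTCF HET replicate 2, and it stood at -0.041 with the offset (adjusted p = 0.86). Cetn1 lay at 705, 853 and 875 CPM, under both WT libraries, but did not pass (-0.28 ± 0.11, edgeR adjusted p = 0.13), while with the offset it did (-0.51, adjusted p = 0.039). Cetn2 had 0, 136 and 31 counts in the 3 CTCF HET libraries, so its log2 fold change of 2.41 ± 2.18 carries no direction. With the offset 8.95% of all genes were called, and of the centrins Cetn4 was higher and Cetn1 lower. Other measures differed between the same libraries: round spermatid markers summed to 65.8 to 101 CPM in CTCF HET against 42 to 42.5 CPM in WT, spermatocyte markers to 7491 to 7917 CPM against 5822 to 6874 CPM, and 12018 to 13406 genes had a count against 17631 to 17683. Their part in the centrin values was not tested.

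The difference between cell types in the change from WT to the libraries labelled CTCF HET was called for 3 of the 4 centrins, in a fit in which 33.6% of 16152 genes were called. Cetn4 differed by -1.46 ± 0.25 (edgeR adjusted p = 0.0027), and this held without each library and with the GC offset (-0.93, adjusted p = 0.0058). The WT round spermatid libraries in this fit were also used in choosing Cetn4, so its test is not independent of the choice. Cetn3 differed by -0.99 ± 0.17 (edgeR adjusted p = 0.0023) but by 0.12 with the offset. Cetn1 differed by 0.57 ± 0.15 (edgeR adjusted p = 0.017), a call lost without WT spermatocyte replicate 2, with RLE scaling and in DESeq2 (0.20, adjusted p = 0.34). RLE scaling moved the median of all genes by -0.37 in this fit, beside a Cetn1 value of 0.57. Cetn2 did not pass (-3.25 ± 1.46, edgeR adjusted p = 0.11).

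No centrin passed the test between the sorted libraries labelled CM and WT. In round spermatids 0 of 4 centrins were called against WT, where 0.00654% of 15298 genes were called, 0 passed an unadjusted p of 0.05 and DESeq2 called 0. Without CM replicate 1, the library with Ctcf at 172 CPM, 1 centrin was called. Cetn4 lay at 2034, 2837 and 3216 CPM, overlapping WT and above every BORIS KO library, and Cetn2 spread from 11.9 over 30.4 to 46.1 CPM, on both sides of WT. The library with 46.1 CPM, replicate 2, also held 356 CPM of spermatogonia markers against 23.5 to 30.1 CPM in WT. In spermatocytes 0 of 4 were called by edgeR (0.604% of 14747 genes). An unadjusted p of 0.05 was passed by 3 centrins and by 4391 of the 14747 genes. DESeq2 called 3161 of 18983 genes and 3 centrins: Cetn1 at -0.52, Cetn2 at 3.24 and Cetn4 at 0.48. Cetn1 was at 614, 620 and 754 CPM, all under the WT libraries, and Cetn4 at 2109, 2156 and 2374 CPM, all above them. The edgeR adjusted p was 0.066 for Cetn1, 0.097 for Cetn2 and 0.089 for Cetn4. With the GC offset, which called 393 of 14747 genes, Cetn3 alone was called, at -0.52 (edgeR adjusted p = 0.039). Without CM replicate 1 the count was 3, and the number of all genes called there is not given. Between cell types the response of CM differed for 0 of 4 centrins (3.51% of 17077 genes called), and DESeq2 called 0. An unadjusted p under 0.05 was held by 2 centrins and by 2602 of the 17077 genes.

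Set against BORIS KO rather than WT, 3 of 4 centrins were higher and 1 lower in the spermatocyte libraries labelled CM (51.8% of 14292 genes called), and these calls held without each library, while with the GC offset 2 were higher and 2 lower. Cetn4 was higher by 1.69 ± 0.11 on the log2 scale (edgeR adjusted p = 0.0003; with the GC offset 1.09), Cetn2 by 3.65 ± 0.81 (edgeR adjusted p = 0.0078) and Cetn3 by 0.92 ± 0.12 (edgeR adjusted p = 0.00099; with the offset -0.61, adjusted p = 0.0018), whereas Cetn1 was lower (-0.58 ± 0.1, edgeR adjusted p = 0.0023). In round spermatids Cetn2, higher by 2.89 ± 0.49 (edgeR adjusted p = 0.015), and Cetn3, by 1.23 ± 0.19 (edgeR adjusted p = 0.013; with the offset -0.44), made 2 of 3 tested, where 23.2% of 15602 genes were called. Both calls were lost without any 1 BORIS KO library or CM replicate 3. Cetn4 was 2.13 ± 0.24 above BORIS KO there, as a description. Spermatocyte markers summed to 3123 to 4783 CPM in CM against 935 to 1017 CPM in BORIS KO round spermatids, and to 7140 to 10312 CPM against 4114 to 4174 CPM in spermatocytes. Round spermatid markers summed to 568 to 842 CPM in CM round spermatids against 979.9 to 1636 CPM in BORIS KO. The part of these markers in the centrin values was not tested. These comparisons share the BORIS KO libraries with those of BORIS KO against WT, so they are not a second measurement of the BORIS KO level.

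The CM value was also set against the sum of the CTCF HET and BORIS KO effects. In round spermatids 37.4% of 16200 genes departed from that sum, Cetn2 by 3.84 ± 0.54 (edgeR adjusted p = 0.00057) and Cetn3 by 1.70 ± 0.21 (edgeR adjusted p = 0.00037; -0.52 with the GC offset), 2 of the 3 tested, while Cetn4 lay 2.76 ± 0.28 above it as a description. In spermatocytes 7.44% of 15263 genes did, and of the 4 centrins Cetn4 alone, by 0.78 ± 0.17 (edgeR adjusted p = 0.022). That call was lost with the offset (0.48, adjusted p = 0.15) and without WT replicate 1, BORIS KO replicate 1 or CM replicate 3. In whole testis 0 of 4 centrins and 0% of 17185 genes departed from the sum in edgeR, 0 centrins passed an unadjusted p of 0.05 and DESeq2 called 0.

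Between the cell types of each mutant, 2 of 4 centrins were called in CTCF HET (53.6% of 14632 genes), both lower in round spermatids: Cetn3 by -0.73 ± 0.12 (edgeR adjusted p = 0.003) and Cetn4 by -0.56 ± 0.18 (edgeR adjusted p = 0.034). The Cetn4 call was lost with the GC offset, with RLE scaling and without 5 of the 6 libraries. In BORIS KO all 3 centrins tested were called (83.3% of 15516 genes): Cetn2 at 4.66 ± 0.25 (edgeR adjusted p = 2e-07), Cetn1 at -0.33 ± 0.056 (edgeR adjusted p = 0.00052) and Cetn3 at -0.28 ± 0.061 (edgeR adjusted p = 0.0021), with Cetn4 at -0.15 ± 0.091 as a description. The fit of all sorted groups called Cetn2 alone of these. In CM 1 of 4 was called (27.9% of 15037 genes), Cetn2 at 3.89 ± 0.88 (edgeR adjusted p = 0.015), lost without CM spermatocyte replicate 1 (adjusted p = 0.056). Cetn2 was thus above its spermatocyte level in round spermatids of WT, BORIS KO and CM, and in CTCF HET it missed the threshold at 2.9 ± 1.34 (edgeR adjusted p = 0.12). Across the 8 sorted groups Cetn4 was ordered by its mean as WT round spermatids, CTCF HET spermatocytes, CM round spermatids, CM spermatocytes, CTCF HET round spermatids, WT spermatocytes, BORIS KO spermatocytes and BORIS KO round spermatids. Libraries of neighbouring groups overlapped along this order except between WT spermatocytes, at 1423 CPM or more, and BORIS KO spermatocytes, at 754 CPM or less.

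In whole testis no centrin passed the main test in any mutant, and the replicate numbers, which pair the libraries there, changed that. In BORIS KO, 0 of 4 centrins were called (0.0551% of 16344 genes), and 0 by DESeq2. An unadjusted p under 0.05 was held by 2 centrins and by 2717 of the 16344 genes. With the replicate number as a block 2 centrins were called (6.59% of genes). These were Cetn4, at 77, 80.8 and 97.3 CPM against 114, 132 and 135 CPM in WT (log2 fold change -0.59 ± 0.15, edgeR adjusted p = 0.2, with the block 0.029), and Cetn1, at 365, 381 and 416 CPM against 478, 521 and 568 CPM (-0.44 ± 0.15, edgeR adjusted p = 0.23, with the block 0.047). Neither gene's libraries overlapped between the groups. In these BORIS KO libraries the 8 Leydig cell markers summed to 787 to 1516 CPM against 374 to 673 CPM in WT, the 7 Sertoli cell markers to 405 to 472 CPM against 208 to 340 CPM and the 8 spermatogonia markers to 92.7 to 122 CPM against 53.2 to 71.3 CPM, and their part in the centrin values was not tested. In CM 0 of 4 were called (25.2% of 16378 genes), with 1 by DESeq2 (5145 of 22503 genes) and 3 with the block (43% of genes). An unadjusted p under 0.05 was held by 2 centrins and by 6789 of the 16378 genes. Cetn4 was at 41.3, 78.1 and 95.1 CPM (-0.85 ± 0.32, edgeR adjusted p = 0.081, with the block 0.011), Cetn1 at 194, 308 and 437 CPM (-0.76 ± 0.32, edgeR adjusted p = 0.11, with the block 0.023) and Cetn3 at 17.1, 40 and 52 CPM (-0.77 ± 0.39, edgeR adjusted p = 0.17, with the block 0.012). Replicate 1 was the lowest of the 3 for each of these genes. Without CM replicate 2 the main test called 2. In the same CM libraries the round spermatid markers summed to 4328 to 12147 CPM against 13620 to 20972 CPM in WT, the Leydig cell markers to 1942 to 3917 CPM against 374 to 673 CPM, and the Sertoli cell markers to 568 to 1132 CPM against 208 to 340 CPM, and their part in the centrin values was not tested. Cetn2 was at 4.04 to 6.92 CPM in CM and 4.27 to 5.84 CPM in WT. In CTCF HET 0 of 4 centrins were called (0.00621% of 16097 genes), 0 passed an unadjusted p of 0.05, and DESeq2 and the block called 0, with Cetn4 at 75.5, 84.3 and 121 CPM (-0.43 ± 0.22, edgeR adjusted p = 1). CM against BORIS KO gave 0 of 4 (0.00600% of 16655 genes), likewise 0 at an unadjusted p under 0.05 and 0 by DESeq2.

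The genes that share a start region with Cetn4 and Cetn2 had their own values in BORIS KO. Bbs12, head to head with Cetn4, was at 4.96, 5.56 and 5.69 CPM in BORIS KO round spermatids against 6.68, 8.62 and 9.12 CPM in WT, a log2 fold change of -0.55 ± 0.17 (edgeR adjusted p = 0.02; 0.18 with the GC offset, adjusted p = 0.47), beside -2.36 for Cetn4. In spermatocytes Bbs12 went the other way from Cetn4: it lay at 1.21, 1.4 and 1.53 CPM in BORIS KO against 0.781 and 0.973 CPM in WT and rose by 0.64 ± 0.2 (edgeR adjusted p = 0.016; 1.08 with the offset), while Cetn4 fell by 1.24. Fgf2 was at most 0.3 CPM in WT libraries of sorted cells. Nsdhl, head to head with Cetn2, was at 3.42, 3.69 and 3.74 CPM in BORIS KO round spermatids against 3.23, 4.24 and 5.18 CPM in WT (-0.18 ± 0.2, edgeR adjusted p = 0.47), beside -2.03 for Cetn2. The difference between the genes of each pair was not itself tested.

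**Figure D4:**
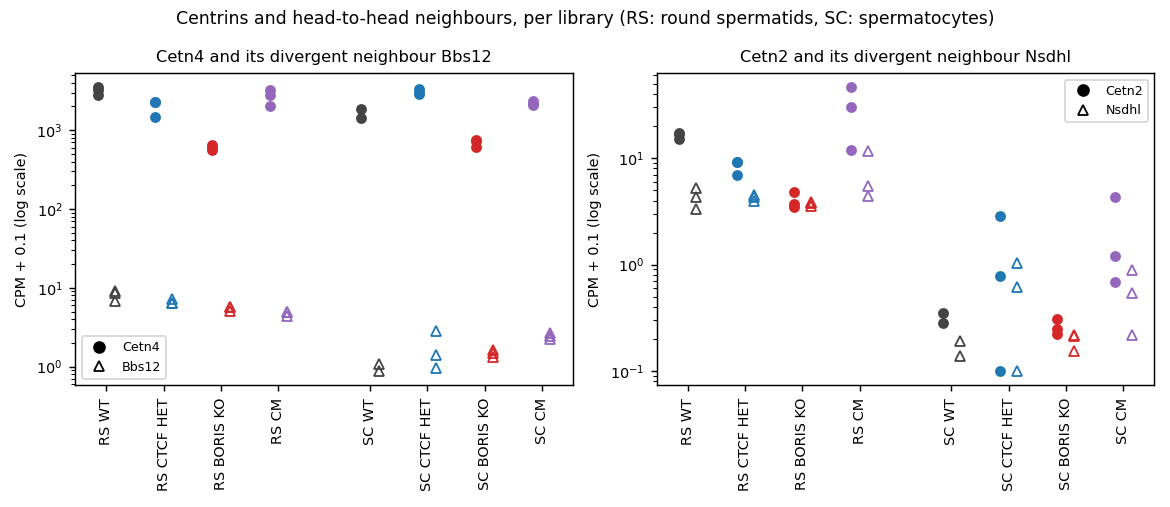
CPM plus 0.1 on a log axis in each round spermatid (RS) and spermatocyte (SC) library for Cetn4 with Bbs12 (left) and Cetn2 with Nsdhl (right); filled circles are centrins and open triangles their neighbours. Cetn4 lies at 754 CPM or less in BORIS KO of both cell types, where Bbs12 lies between 1.21 and 5.69 CPM, and Cetn2 and Nsdhl are both under 5 CPM in every spermatocyte library.

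Other genes of the centriole were read from lists of partners and structures. In BORIS KO round spermatids 9 of 16 centrin binding partners tested were higher and 5 lower, with a median log2 fold change of 0.42 against -0.013 over all genes. Of all genes 26.8% were higher and 29.0% lower, and the counts of each list are to be read against these shares. Among the partners Wdr90, a centriole wall protein, rose by 2.01 ± 0.22 (edgeR adjusted p = 0.0001), and Rad23b, which sits with Cetn2 in the XPC complex, fell by 1.63 ± 0.074 on the log2 scale (edgeR adjusted p = 3e-06). Shfm1, of the export complex that Cetn2 joins, fell by 1.26 ± 0.097 (edgeR adjusted p = 1.6e-05). Of 23 centriole assembly genes 4 were higher and 12 lower (median -0.35), with Ppp1r35 up by 1.81 ± 0.2 (edgeR adjusted p = 0.00011) and Plk4, the kinase that starts centriole duplication, down at -1.16 ± 0.093 (edgeR adjusted p = 2e-05). Of 22 genes of the pericentriolar material and centriole appendages 5 were higher and 10 lower, Cep290 of the ciliary transition zone at -2.11 ± 0.11 (edgeR adjusted p = 3.3e-06) and Ccdc41 (Cep83) of the distal appendages at -1.74 ± 0.092 (edgeR adjusted p = 3.6e-06). In the apparatus that couples sperm head and tail 5 of 17 were higher and 8 lower, among the ciliary gene regulators 6 of 10 higher and 3 lower, and among calmodulins and other EF-hand proteins 2 of 18 higher and 10 lower, with Ppp3r1, the regulatory subunit of calcineurin, at -1.94 ± 0.16 (edgeR adjusted p = 2.3e-05). With the GC offset the same lists gave 6 higher and 4 lower partners, 6 and 5 assembly genes, 2 and 10 pericentriolar and appendage genes, 3 and 4 coupling genes, 3 and 1 regulators, and 2 and 9 EF-hand genes, where 18.1% of all genes were higher and 19.4% lower. Plk4 then stood at -0.13 (adjusted p = 0.28), while Cep290 (-0.93), Rad23b (-0.87) and Wdr90 (1.09) kept their calls.

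In BORIS KO spermatocytes, where 29.1% of all genes were higher and 28.1% lower, 8 of 16 partners were higher and 6 lower (5 and 3 with the GC offset, which called 21.8% of all genes higher and 20.2% lower), Wdr90 again up (2.22 ± 0.31, edgeR adjusted p = 6.2e-05) and Rad23b down (-1.06 ± 0.084, edgeR adjusted p = 2.7e-06). Assembly genes were 4 higher and 15 lower of 23 (median -0.38 against 0.022 over all genes), and 5 and 8 with the offset. Pericentriolar and appendage genes were 4 higher and 9 lower of 22, led by Sclt1 (-0.94 ± 0.067, edgeR adjusted p = 2e-06) and Cep70 (-1.08 ± 0.080, edgeR adjusted p = 2.4e-06), and 1 and 13 with the offset. In CTCF HET round spermatids, where 12.8% of all genes were lower and 9.51% higher, the coupling apparatus had 7 lower and 0 higher of 17, with Odf1, the main outer dense fibre protein, at -0.56 ± 0.11 (edgeR adjusted p = 0.0096) and Pmfbp1, which joins head and tail, at -0.60 ± 0.1 (edgeR adjusted p = 0.0069), and 7 lower and 0 higher with the offset, where 12.8% of all genes were lower and 9.12% higher. EF-hand genes had 6 lower and 0 higher of 17, with Cabyr, a calcium-binding protein of the sperm tail, at -1.19 ± 0.12 (edgeR adjusted p = 0.0024). In the same round spermatid libraries the round spermatid markers summed to 986 to 1044.5 CPM in CTCF HET against 1398 to 1557 CPM in WT, and their part in these counts was not tested. Pmfbp1 and Cabyr were higher in CTCF HET spermatocytes, at 1.46 ± 0.35 (edgeR adjusted p = 0.031) and 1.86 ± 0.36 (edgeR adjusted p = 0.016), where 6.77% of all genes were called higher. Round spermatid markers summed to 65.8 to 101 CPM in those libraries against 42 to 42.5 CPM in WT spermatocytes, and their part in these 2 values was not tested. In CM whole testis 10 of 17 coupling genes, 6 of 23 assembly genes and 5 of 16 partners were lower and 0, 0 and 1 higher, where 8.80% of all genes were lower and 16.4% higher. Of the 10 round spermatid markers 5 were lower and 0 higher in the same comparison, with a median of -0.89, and their part in these counts was not tested.

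Neither CTCF nor BORIS had a peak at a centrin promoter in the ChIP-seq of whole testis. Of the 4 starts, 0 lay within 1 kb of a WT CTCF peak (23.0% of 21872 genes did), 0 of a WT BORIS peak (12.0%) and 0 of a CM CTCF peak (6.88%), and a window of 2 kb also gave 0. RNA polymerase II, in contrast, had a peak at all 4 starts in WT (37.6% of genes) and in CM (44.7%), and so had H3K4me3, the histone mark of active promoters, in WT (49.5%) and CM (54.5%). Scores of the Pol2 promoter peaks in WT and CM were 911 and 429 for Cetn1, 173 and 388 for Cetn2, 1049 and 1409 for Cetn3, and 765 and 855 for Cetn4. The labels name 2 Pol2 libraries for each genotype. The deposited list of each genotype holds no values per replicate, so these scores are values and not differences. The Cetn2 peaks also cover the start of Nsdhl, and the Cetn4 peaks those of Bbs12 and Fgf2. Their scores cannot be assigned to 1 gene. Within 2 kb of the 4 genes there was no WT CTCF peak to be lost in CM, and within 10 kb there was 1, which had a CM peak too.

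That peak lay 4744 bases beyond the 3′ end of Cetn4, was listed for both proteins in WT, and is shown because it is the nearest WT site of either to any centrin. The WT CTCF peak spans 37201717 to 37201927 of chromosome 3 with a height of 148. Of WT CTCF peaks 19.8% were of that height or lower. The WT BORIS peak spans 37201716 to 37201879 with a height of 97, at or below which lay 58.3% of BORIS peaks. The CM CTCF peak spans 37201691 to 37201896 with a height of 165, at or below which lay 19.6% of CM CTCF peaks. Capitals mark the CTCF core motif, read on the minus strand at bases 72 to 83:
Cetn4 downstream WT CTCF peak (chr3:37201717-37201927, plus strand): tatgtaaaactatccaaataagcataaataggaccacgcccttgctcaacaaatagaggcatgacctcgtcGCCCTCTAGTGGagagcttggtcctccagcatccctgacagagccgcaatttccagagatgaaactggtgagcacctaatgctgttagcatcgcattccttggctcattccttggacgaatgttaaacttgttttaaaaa

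The same letters were in 49.8% of windows of 211 bases around WT CTCF summits and in 54.2% of those around BORIS summits. At the other centrins the nearest WT BORIS peak was 165086 bases from Cetn1, 868445 from Cetn2 and 1051324 from Cetn3, and the nearest WT CTCF peak 164954, 74135 and 15939 bases away. A CTCF peak 4060 bases beyond the 3′ end of Cetn3, from 81940202 to 81940372 of chromosome 13, was listed in CM alone, with a height of 100, the lowest in its list.

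**Figure D5:**
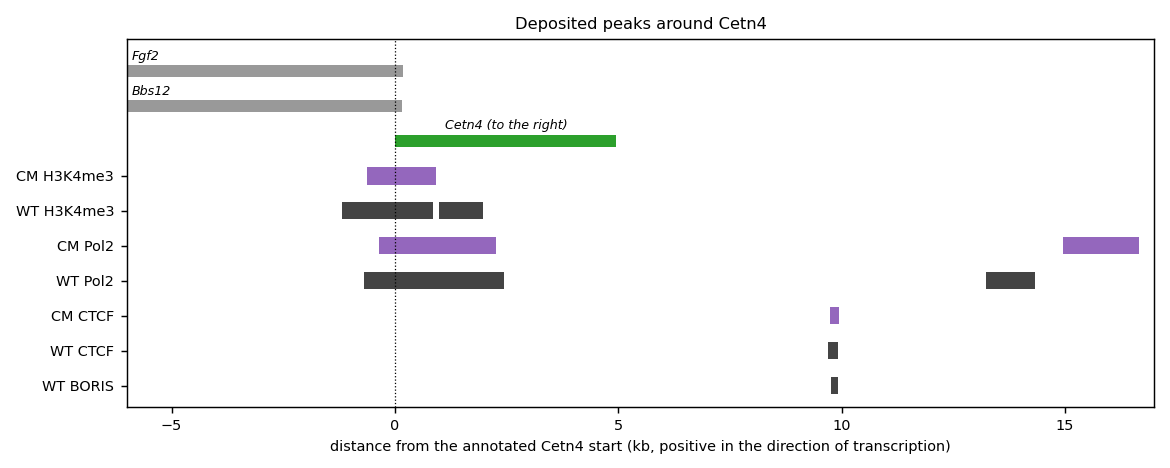
Peaks deposited for BORIS, CTCF, Pol2 and H3K4me3 in WT (grey) and CM (purple) by distance in kb from the annotated start of Cetn4, positive in the direction of transcription, with Cetn4 (green) and the overlapping Bbs12 and Fgf2 on the opposite strand. Pol2 and H3K4me3 peaks cover the start, and the CTCF and BORIS peaks lie together 4744 bases or more past the end of the gene.

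Genes with patterns most like each centrin were ranked by Pearson correlation of log2 CPM, centred within each preparation, over the 35 libraries, among 10096 genes with a mean of at least 1 CPM in each preparation. The libraries share genotype, cell content and GC trend, so these values describe likeness only. For Cetn4 the nearest were 4931423N10Rik (r = 0.978), Slco6c1 (0.977), Eif5 (0.975), Dnajb9 (0.972) and Yme1l1 (0.968). Cetn3 was nearest to Pdcl2 (0.979), Dnaja2 (0.974), 4930403N07Rik (0.974), Ppp1r42 (0.972) and Spata1 (0.971), and the 4 of these with a GC value lay at 38.1% to 41.7%. Cetn1 was nearest to Crcp (0.935), Eid3 (0.932), Nsun2 (0.924), Bpgm (0.922) and Vit (0.919), and Cetn2, which fell short of the CPM minimum in spermatocytes, to Pls1 (0.871), 4930473O22Rik (0.833), Sec22c (0.822), Alkbh8 (0.805) and Pak3 (0.793). Between centrins r was 0.926 for Cetn3 with Cetn4, and from -0.421 to 0.418 for the other 5 pairs.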

How the data were processed

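The authors deposited raw counts of reads per gene symbol, with no normalization, for 35 RNA-seq libraries in 2 tables: whole testis (germ cell preparations, RNA depleted of ribosomal RNA, single-end reads on Ion Proton, aligned to mm9 with TopHat2 and Bowtie2 per the submitters' processing notes) and sorted round spermatids and spermatocytes (poly(A) RNA, STAR). The counting tool, annotation and strand setting are not given in the sources used here. The authors also deposited peak lists of whole testis ChIP-seq: the height of CTCF and BORIS peaks is a signal, and Pol2 and H3K4me3 peaks carry a score. Each list stands for all ChIP-seq libraries of its genotype and antibody. Depth behind the peaks is unknown.

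Counts were filtered by filterByExpr (minimum count 10, total 15), TMM-scaled and tested with edgeR 4.0.16 (quasi-likelihood, robust) between the groups compared, called at Benjamini-Hochberg adjusted p under 0.05 over all genes tested, with no threshold on the fold change. Difference and sum contrasts used all 4 groups involved. Errors of log2 fold changes are SEs. RPKM used merged exon lengths of the mm9 annotation, and exon GC content was known for 95.7% to 96.8% of genes tested. Replicate numbers paired the whole testis libraries: each of 18 same-numbered pairs between genotypes had deviations from the group means correlated above 0.1 (0.112 to 0.621). Whole testis preparations were independent pools of 4 mice. For sorted cells the animals behind each library are not given in the sources used here, so p-values measure the spread between libraries, which may be technical. No libraries were identical.

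Alternatives were DESeq2 1.42.0 (Wald test), RLE scaling, no filter, all groups of a table in 1 fit, the replicate block, the study's thresholds (adjusted p under 0.001 and a fold change above 2) and leaving out each library. The GC offset (loess, span 0.4) was chosen after seeing the data. The centrins, the gene lists and the tests were chosen with earlier results of these data known, and all members were named. Of other lists, called genes were named from the 2 best by adjusted p among those higher and among those lower. Scripts were tested on simulated counts. Statistics ran in R 4.3.3 and figures in matplotlib 3.10.9.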

Additional observations from a re-analysis of the deposited data

Results flagged for a closer look

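For 5 values the response to a genotype differed between round spermatids and spermatocytes by a test of the difference itself. Each genotype had 1 edgeR fit over 4 groups. It called 33.6% of 16152 genes for CTCF HET and 13.4% of 16519 genes for BORIS KO. For CTCF HET against WT the values were Cetn1 at 0.57 on the log2 scale, Cetn3 at -0.99 and Cetn4 at -1.46. Cetn4 was lower than WT in 3 of 3 round spermatid libraries and higher in 3 of 3 spermatocyte libraries. The Cetn1 call was lost with RLE scaling and in DESeq2, beside a median of 0.33 over all genes in the main fit. For BORIS KO against WT the values were Cetn2 at -1.64 and Cetn3 at -0.68, each lower than WT in 3 of 3 round spermatid libraries. In the fit of all sorted groups neither BORIS KO value was called. Cetn3 was near 0 with the GC offset for both genotypes. The WT round spermatid libraries were also used in choosing Cetn4, so its value is not independent of the choice. Ctcf itself was not lower in the CTCF HET spermatocyte libraries. The part that GC content and the levels of spermatocyte and round spermatid markers play in these values was not tested.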

How the results depend on the processing

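Values in this section are numbers of centrins called unless a log2 fold change is named. Brackets that name genes give the number called among all genes tested under that setting. At the study's thresholds the number was 0 for CTCF HET against WT in round spermatids (1 of 15238 genes) and in spermatocytes (0 of 13648 genes). It was 0 too for CM against BORIS KO in round spermatids (0 of 15602 genes). Round spermatids against spermatocytes gave 0 in CTCF HET (2254 of 14632 genes) and in CM (120 of 15037 genes). Both called differences between cell types gave 0 (96 of 16152 genes for CTCF HET, 4 of 16519 genes for BORIS KO). So did the departure from the sum in spermatocytes (0 of 15263 genes). The number was 1 for BORIS KO spermatocytes (684 of 14338 genes) and for CM against BORIS KO in spermatocytes (1001 of 14292 genes). It was also 1 for the cell types of WT (5726 of 16052 genes) and of BORIS KO (7440 of 15516 genes). The replicate block called 2 in BORIS KO whole testis (1077 of 16344 genes) and 3 in CM whole testis (7043 of 16378 genes). With the GC offset added the numbers were 1 (1130 of 16344 genes) and 3 (7051 of 16378 genes). The block moved no other number by over 1.5 times. In the sorted cells the numbers did not pair the libraries (4 of 18 correlations above 0.1 in round spermatids, 1 of 15 in spermatocytes). DESeq2 called 1 in CM whole testis (5145 of 22503 genes) and 3 in CM spermatocytes (3161 of 18983 genes). The fit of all groups called 2 in CM whole testis (6060 of 17185 genes). In round spermatids it called 0 in CTCF HET (287 of 17314 genes) and 1 in BORIS KO (4844 of 17314 genes). Between the cell types of BORIS KO it called 1 (8744 of 17314 genes), and for the BORIS KO difference 0 (6 of 17314 genes). RLE scaling called 1 between the cell types of CTCF HET (7884 of 14632 genes). With the GC offset the number was 1 in CM spermatocytes (393 of 14747 genes) and for CM against BORIS KO in round spermatids (365 of 15602 genes). It was 1 too between the cell types of CTCF HET (7936 of 14632 genes) and for the BORIS KO difference (1466 of 16519 genes). For the departure from the sum in spermatocytes it was 0 (111 of 15263 genes).

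Under the offset the log2 fold change of Cetn3 turned to 0.096 (CTCF HET) and 0.075 (BORIS KO) in round spermatids, -0.041, 0.021 and -0.52 (CTCF HET, BORIS KO, CM) in spermatocytes, -0.44 and -0.61 (CM against BORIS KO in round spermatids and spermatocytes), -0.73 (cell types of WT), 0.12 and 0.062 (CTCF HET and BORIS KO differences) and -0.52 (departure from the sum in round spermatids), by the removal of the trend on GC content. Cetn1 in BORIS KO spermatocytes, at 0.024, ranged from -0.027 to 0.068 with 1 library left out and was -0.024 in another.

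Leaving out 1 library gave 1 to 3 for CTCF HET round spermatids, 0 to 2 for CTCF HET spermatocytes, 2 to 3 for BORIS KO round spermatids, 2 for BORIS KO spermatocytes, 0 to 2 for CM whole testis, 0 to 1 for CM round spermatids, 0 to 3 for CM spermatocytes, 0 to 2 for CM against BORIS KO in round spermatids, 3 to 4 between the cell types of WT, 1 to 2 in CTCF HET, 3 in BORIS KO, 0 to 1 in CM, 2 to 4 and 0 to 3 for the CTCF HET and BORIS KO differences, and 2 to 3 and 0 to 1 for the departure from the sum in round spermatids and spermatocytes. Where this left 1 WT spermatocyte library, it was assumed to vary like the other groups. The number of all genes called is not given for fits with 1 library left out. The counts of CTCF and BORIS promoter peaks were 0 under every window and height tried. The cause of these shifts was not tested beyond the construction of each alternative. Depth limits Cetn2 in spermatocytes, with 0 to 297 counts a library.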
